A study of Mus musculus with 150 samples.

Results

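A set of genes commonly used to mark alveolar type 1 cells was followed across the deposited tables of a study of airway progenitor cells in mice. The study set p53 knockout against wild type; p53 is a stress-response transcription factor. The genes are Ager, Hopx, Pdpn, Aqp5, Cav1, Emp2, Akap5, Rtkn2 and Clic5, listed by name with earlier results of these data known. All 9 were found among 31175 gene rows of the single-cell tables and 24341 rows of the bulk table. The bulk set held 3 knockout libraries (replicates 7, 8 and 10) and 3 wild-type libraries (replicates 1, 5 and 6). Bulk cells were sorted as positive for GFP and EpCAM and negative for CD31, CD34, CD45 and the dead-cell dye 7AAD. The donors were mice of 8 to 12 weeks that carried the Cre allele Scgb1a1-CreERTM and the reporter Rosa26-mT/mG, with p53flox/flox in the knockout group and p53+/+ in the wild-type group. The Cre is driven by Scgb1a1, the main secretory protein of airway club cells, and is switched on by tamoxifen. GFP therefore marks cells that expressed Scgb1a1 when tamoxifen was given, and their descendants. The sampling time of the bulk cells is unclear. Library titles give day 30 with no starting point, whereas the protocol places tamoxifen 70 days earlier. The single-cell set held 61 cells labelled knockout and 66 wild-type cells with at least 1000 detected genes, caught on Fluidigm C1 chips. Their labels give the genotype as p53-/- or wild type, with tamoxifen at 250 mg/kg for sequencing. They name several mouse crosses without saying which one gave the cells, or whether the cells were fresh or cultured.

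Alveolar type 1 cells are the thin, flat cells that cover most of the gas-exchange surface of the lung. They arise in adults mainly from alveolar type 2 cells, the surfactant producers marked by Sftpc, and Scgb1a1-expressing airway cells can also give rise to alveolar cells after injury. Most of the 9 genes are not exclusive to type 1 cells: Ager is also found at lower levels in type 2 cells, Aqp5 in airway glands, Pdpn in lymphatic endothelium and mesothelium, and Cav1 in endothelium.

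Trp53 averaged 8.73 ± 1.21 FPKM in knockout and 20.2 ± 3.09 FPKM in wild-type bulk libraries (SD, n = 3 each; limma adjusted p = 0.144), with no overlap. In the single cells Trp53 went against the labels, since it was detected in 16 of 61 cells labelled knockout and in 4 of 66 wild-type cells. Cdkn1a, a p53 target, lay in the direction of the labels: among cells with more Scgb1a1 than Sftpc it was detected in 28.3% of those labelled knockout and 46.9% of wild-type cells, a difference of mean log2(TPM + 1) of -1.94. Among cells with more Sftpc the difference was -0.44. A gene was called detected in a cell at a TPM of at least 1. The median cell labelled knockout had 3580 detected genes, with 6.28% of its TPM in spike-in RNA, against 3130.5 genes and 13.2% for wild-type cells, and the part of this gap in the differences below was not tested. Bulk libraries had 11744 to 11933 genes at an FPKM of at least 1. Over 14 alveolar type 2 markers, mean log2(FPKM + 1) was 8.08 to 8.30 in knockout libraries, 8.56 and 8.65 in wild-type replicates 5 and 6, and 9.68 in wild-type replicate 1, which stood apart. The number of reads behind each FPKM or TPM value is unknown.

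The stretch before the transcription start is shown for Ager, Pdpn and Emp2, on which several of the results below turn, as 250 bases from RefSeq (GRCm38.p6), 5′ to 3′ on the gene's strand. Ager lies at chr17:34597600-34597849 (+), Pdpn at chr4:143299565-143299814 (-) and Emp2 at chr16:10313969-10314218 (-). Capitals mark CCGCCC or its reverse complement GGGCGG, a core shared by KLF factors.
Ager: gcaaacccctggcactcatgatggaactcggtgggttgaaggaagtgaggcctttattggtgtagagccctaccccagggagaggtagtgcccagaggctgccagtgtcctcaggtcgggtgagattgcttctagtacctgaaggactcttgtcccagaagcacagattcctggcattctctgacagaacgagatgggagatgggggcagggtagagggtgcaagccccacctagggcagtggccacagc
Pdpn: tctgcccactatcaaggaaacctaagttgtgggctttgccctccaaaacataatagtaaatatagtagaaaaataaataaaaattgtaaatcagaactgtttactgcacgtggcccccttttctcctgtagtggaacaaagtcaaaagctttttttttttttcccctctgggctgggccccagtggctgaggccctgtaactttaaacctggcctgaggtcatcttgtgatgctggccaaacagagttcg
Emp2: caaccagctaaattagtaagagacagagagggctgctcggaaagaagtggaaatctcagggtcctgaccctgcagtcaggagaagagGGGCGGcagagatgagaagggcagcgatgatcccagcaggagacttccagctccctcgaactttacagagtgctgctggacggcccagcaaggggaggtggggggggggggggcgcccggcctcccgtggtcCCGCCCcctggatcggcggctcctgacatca
Windows were found for 8 of 9 members, 10 windows in all because Hopx and Cav1 have 2 starts each. CCGCCC was present on either strand in 5 of the 10 windows, those of Emp2, Aqp5, Akap5, Clic5 and 1 of Cav1, against 32.7% of all 32851 windows of that length. The other 3 motifs searched on both strands were CAAGTG for NKX2-1, GGAATG for TEAD factors and AGATAA for GATA factors. None of these 3 was found in any of the 10 windows, against 11.6%, 12.6% and 9.99% of all windows. GC content was 57.6% before Ager, 43.2% before Pdpn and 62.8% before Emp2.

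In bulk, none of the 9 genes passed the test between knockout and wild type, and the pair with the lowest p, Ager and Emp2, lay lower in knockout libraries. The test was limma on log2(FPKM + 1), two-sided, with Benjamini-Hochberg adjustment over 11957 genes and a threshold of 0.05. At that threshold 0.00836% of tested genes were called lower (1 gene) and 0% higher, and at an unadjusted p under 0.05 the test gave 842 higher (7.04%) and 724 lower (6.06%) genes. Of the 9 members, 7 passed the filter of at least 1 FPKM in at least 3 of 6 libraries, and 0 of these 7 were called, with 1, Ager, at an unadjusted p under 0.05. Their median log2 fold change, knockout over wild type, was -0.03, beside 0.01 over all tested genes. Nothing in the labels ties each library to its own animal, and the p-values rest on the spread among these 6 libraries only. In bulk libraries, fewer cells of a type and less RNA per cell cannot be told apart.

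Ager encodes the receptor for advanced glycation end products, a surface receptor abundant on type 1 cells (ENSMUSG00000015452.14, chr17:34597862-34600936, + strand). It had 457, 297 and 362 FPKM in knockout replicates 7, 8 and 10, against 728, 459 and 631 FPKM in wild-type replicates 1, 5 and 6. The highest knockout library and the lowest wild-type library almost touched, without overlap. The log2 fold change was -0.70 ± 0.24 (SE; limma adjusted p = 0.336). Emp2, a tetraspan membrane protein (chr16:10281749-10313968, - strand), had 119, 96.4 and 97.1 FPKM in knockout libraries, against 206, 123 and 128 FPKM in wild-type libraries. Its groups were also apart, with the widest gap to wild-type replicate 1, and the log2 fold change was -0.51 ± 0.22 (SE; limma adjusted p = 0.387), or -0.27 (limma adjusted p = 0.345) without that library. Thus 2 of 7 tested members lay lower in knockout libraries without overlap and 0 lay higher, where 10.2% of all tested genes lay lower and 9.04% higher in this way. Of 14 alveolar type 2 markers tested, 0 were called, 14 had negative fold changes and 9 lay lower in knockout libraries without overlap. Some of the differences rested on wild-type replicate 1: Sftpb, whose groups overlapped, averaged 2182 FPKM in knockout libraries, against 2390 FPKM in wild-type libraries and 2174 FPKM without that library. The 9 markers without overlap lay below wild-type replicates 5 and 6 as well. Among them, Lamp3 averaged 154 FPKM in knockout libraries, against 382 FPKM in wild-type libraries and 227 FPKM without replicate 1. Fabp5 averaged 138 FPKM, against 397 FPKM and 259 FPKM. All 5 immune markers and 3 of 4 tested endothelial markers lay lower in knockout libraries without overlap and 3 of 6 ciliated-cell markers lay higher, with 0 called in these lists. The part of these markers in the values of Ager and Emp2 was not tested.

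Pdpn, which encodes the mucin-type membrane glycoprotein podoplanin (chr4:143267431-143299564, - strand), had 16.3, 11.9 and 8.80 FPKM in knockout libraries, against 1.90, 21.5 and 21.2 FPKM in wild-type libraries. Wild-type replicate 1 was about an order of magnitude below the other wild-type libraries, which were both above every knockout library. The log2 fold change was 0.20 ± 0.81 (SE; limma adjusted p = 0.946), and -0.78 (limma adjusted p = 0.137) without wild-type replicate 1. Hopx, a homeodomain-only cofactor without DNA binding of its own (chr5:77086988-77115121, - strand), had 170, 149 and 177 FPKM in knockout libraries, against 90.1, 132 and 178 FPKM in wild-type libraries. The groups overlapped, at a log2 fold change of 0.36 ± 0.25 (SE; limma adjusted p = 0.582), or 0.10 without wild-type replicate 1 and 0.59 without wild-type replicate 6. Hopx, Cav1 and Rtkn2 each overlap an annotated antisense gene (Hopxos, Gm15581 and Gm16212), and strand was not used in counting as far as the sources state, so reads of the partners cannot be told apart.

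Aqp5 encodes a water channel (chr15:99590782-99594829, + strand) and was the most even member, at 314, 333 and 367 FPKM in knockout libraries and 324, 342 and 368 FPKM in wild-type libraries. Clic5, a chloride intracellular channel family protein tied to the cell cortex (chr17:44188584-44280172, + strand), averaged 37.6 ± 9.18 FPKM in knockout and 37.1 ± 4.78 FPKM in wild-type libraries (SD, n = 3 each). Both had overlapping groups, at log2 fold changes of -0.03 ± 0.14 for Aqp5 and -0.0012 ± 0.19 for Clic5 (SE). Cav1, the coat protein of caveolae (chr6:17306335-17341452, + strand), was low, with 2.07, 3.50 and 2.42 FPKM in knockout libraries, against 3.32, 3.75 and 2.08 FPKM in wild-type libraries. Akap5, a scaffold for protein kinase A (chr12:76324891-76334153, + strand), stayed under 1 FPKM in all 6 libraries, at 0.283, 0.253 and 0.289 FPKM in knockout and 0.901, 0.547 and 0.504 FPKM in wild-type libraries. Rtkn2 (chr10:67979570-68059740, + strand) had 0.451, 0.408 and 0.293 FPKM in knockout libraries, against 1.45, 0.833 and 0.444 FPKM in wild-type libraries. Akap5 and Rtkn2 did not pass the filter and were not tested.

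By level per transcript length, Ager and Aqp5 led in both groups, with overlapping ranges in knockout libraries and Ager above Aqp5 in wild-type libraries. Hopx came next, apart from Emp2, in knockout libraries, and overlapped Emp2 in wild-type libraries. Clic5 lay below these 4 in all 6 libraries, and Pdpn, Cav1, Rtkn2 and Akap5 were lower still in group means.

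**Figure D1:**
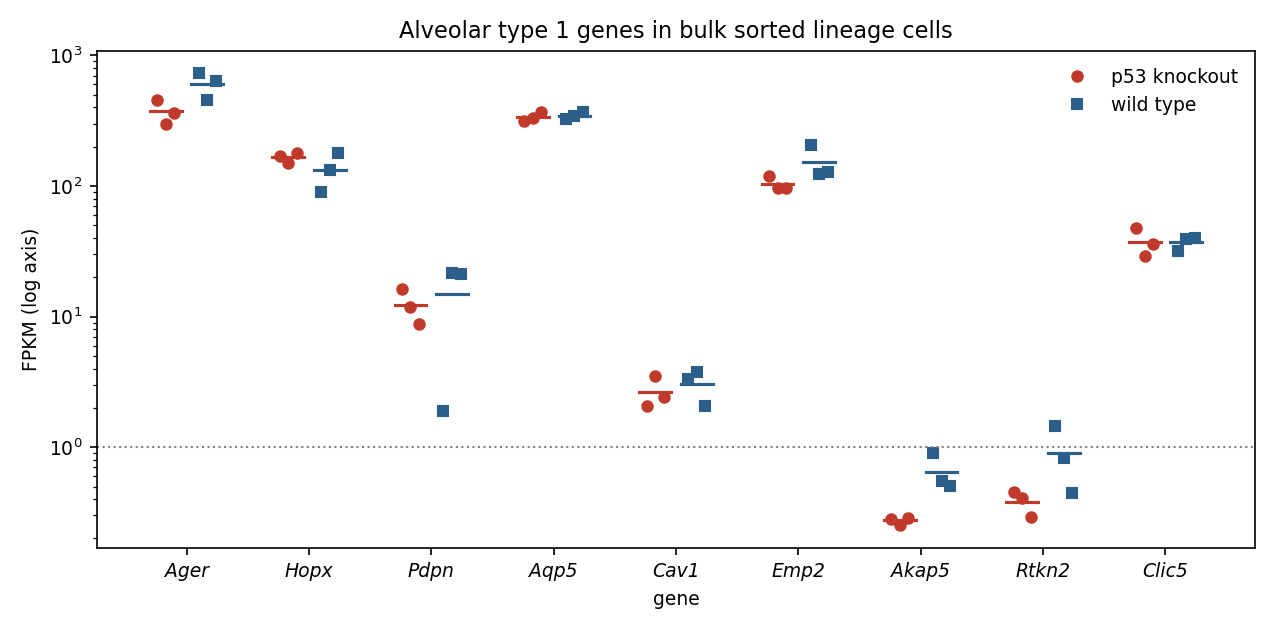
FPKM (log axis) of each gene in 3 knockout (red circles) and 3 wild-type (blue squares) bulk libraries; lines are group means and the dotted line is 1 FPKM. For Ager and Emp2 every knockout point lies under every wild-type point, Pdpn has 1 wild-type library at 1.90 FPKM, and Akap5 lies under the dotted line throughout.

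For the single cells, a cell was placed by which of 2 transcripts it held more of, which uses none of the 9 genes. Sftpc exceeded Scgb1a1 in 15 of 61 cells labelled knockout and in 17 of 66 wild-type cells, and the rest were Scgb1a1-dominant. The labels name no animal, so each genotype counted as 1 sample; no test between conditions was possible, and intervals of shares are exact Clopper-Pearson at 95% and cover counting error only. All differences are of mean log2(TPM + 1).

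Of the 9 genes, 6 were detected in at least 20% of the 127 cells. Ager was detected in 90 of 127 cells (70.9%, interval 62.1 to 78.6%), Aqp5 in 82, Emp2 in 78, Pdpn in 59, Clic5 in 55 and Hopx in 48. Mean levels per length were 577 TPM for Ager, 227 TPM for Pdpn, 46.6 TPM for Emp2, 36.2 TPM for Aqp5, 17.6 TPM for Hopx and 8.62 TPM for Clic5. By the mean over all cells Pdpn came after Ager, whereas in bulk it lay below 5 other members. Its median over all cells was 0.17 TPM, below the 3.08 TPM of Aqp5 and the 2.76 TPM of Emp2, and in Sftpc-dominant cells its mean was also below those of Aqp5 and Emp2. Akap5 was detected in 17 cells and Rtkn2 in 12, while any TPM above 0 was found in 79 and 55 cells, more than 20% of the 127. Cav1 was detected in 0 of 61 cells labelled knockout, which allows a share of up to 4.92% by the limit of 3 cells of the total, or 5.87% by the exact interval, and in 3 of 66 wild-type cells. Among markers of other lung cell types, Pecam1, Tek, Egfl7, Emcn, Cldn5 and Eng of endothelium, all 6 fibroblast markers and all 4 basal-cell markers were detected in 0 cells. Kdr was detected in 14 cells labelled knockout and 21 wild-type cells, and Esam in 9 cells labelled knockout and 6 wild-type cells. Single cells labelled knockout also held the lymphatic markers Lyve1 (2 cells) and Flt4 (1 cell), the endothelial marker Ramp2 (1 cell) and the immune markers Tyrobp (2 cells), Laptm5 (2 cells) and Coro1a (1 cell), which were detected in 0 wild-type cells. The lymphatic marker Prox1 and the immune markers Ptprc and Cd52 were detected in 0 cells of either genotype. The most frequent ciliated-cell marker, Ccdc39, was detected in 4 cells labelled knockout and 3 wild-type cells. The part of these cells in the members' values was not tested.

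The genes were seldom found all together. A cell held a median of 3 of the 9 genes on either chip, and a median of 2 at a TPM of at least 10. The highest number was 8, in 1 Sftpc-dominant cell labelled knockout (replicate 36), where only Cav1 was not detected. That cell had 677 TPM of Ager, 62.96 TPM of Hopx, 65.04 TPM of Aqp5, 91.6 TPM of Emp2, 70.6 TPM of Akap5 and 24.1 TPM of Rtkn2, beside 272615 TPM of Sftpc. No other cell held more than 6. At least 5 genes at a TPM of at least 10 were found in 4 of 61 cells labelled knockout and 3 of 66 wild-type cells. None of the 9 reached that level in 1 cell labelled knockout and 5 wild-type cells.

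**Figure D2:**
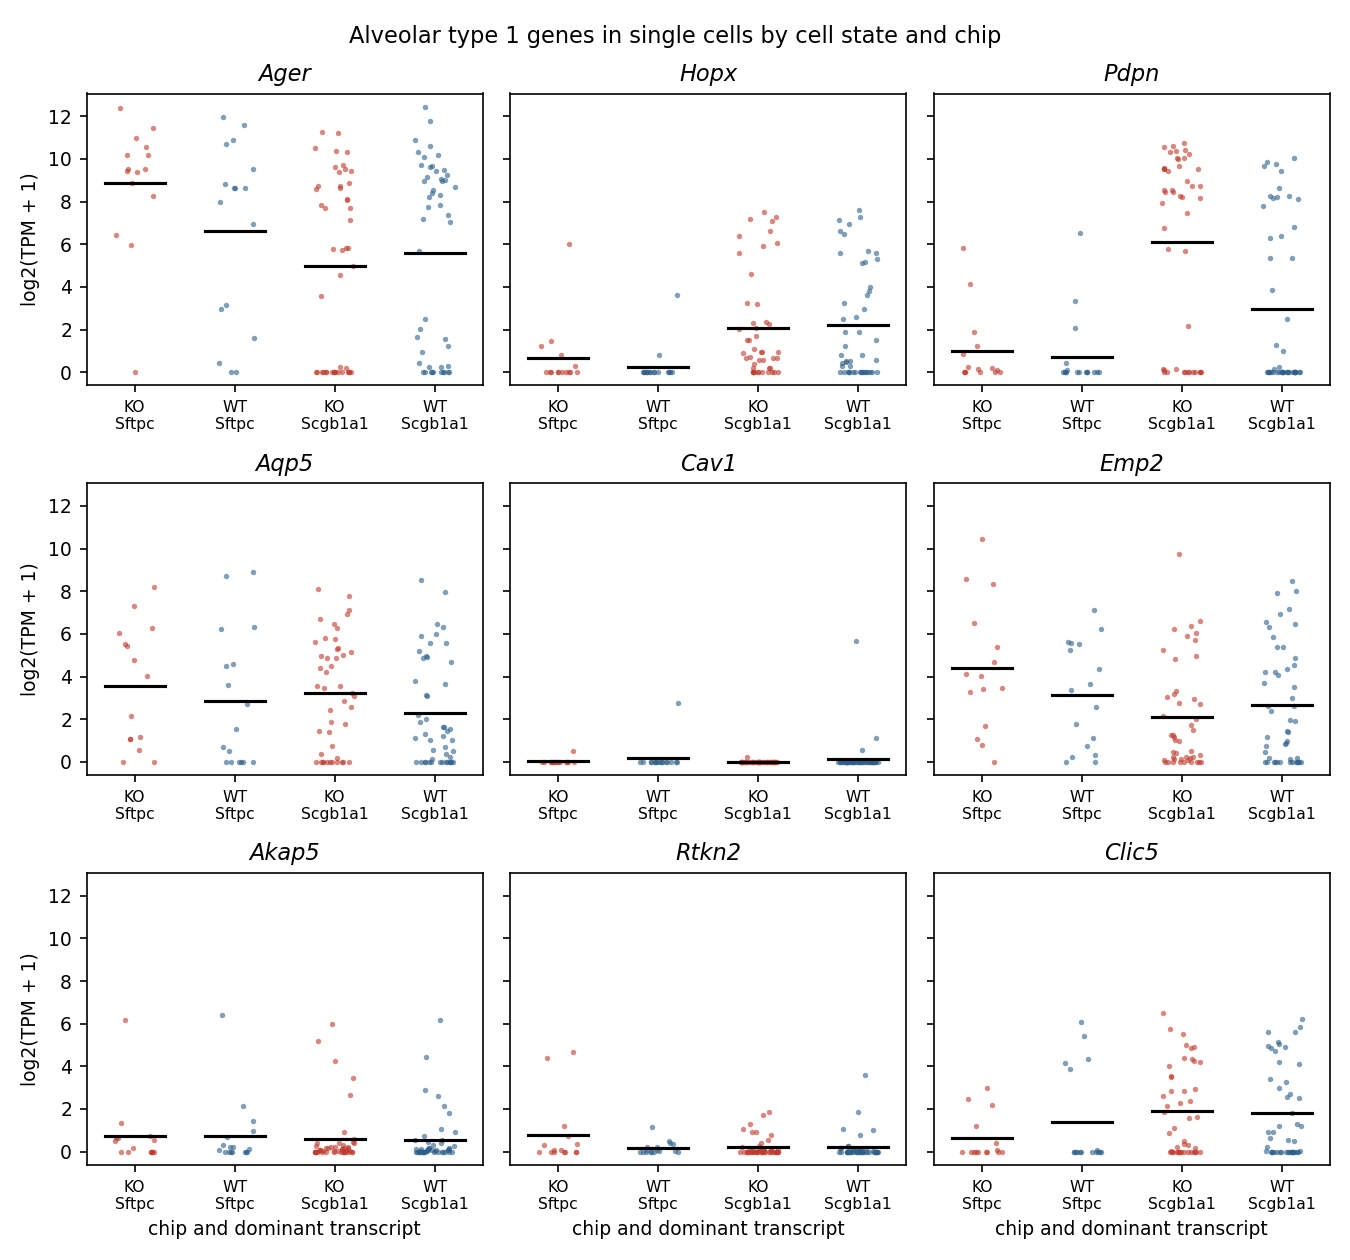
Log2(TPM + 1) of each gene in single cells of the knockout (KO, red) and wild-type (WT, blue) chips, split by the dominant transcript, Sftpc or Scgb1a1; each point is 1 cell and lines are means. Ager and Pdpn each fall into cells near 0 and cells at high levels, and high Pdpn values lie almost only among Scgb1a1-dominant cells. Hopx values are more graded, with 27 cells at a TPM of at least 10 and 8 at a TPM of at least 100.

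Between cell states, Ager was higher in Sftpc-dominant cells, and Pdpn and Hopx were lower there, on both chips. Genes were counted from a difference of 1 upward on both chips, if 20% or more of the cells of the higher state had them; 2.32% of 5349 genes were higher and 8.23% lower by this rule, beside 1 and 2 of the 6 members that could be counted. In the knockout chip, Ager ranged over a lowest 0, a median 743 and a highest 5402 TPM in Sftpc-dominant cells, against 0, 55.2 and 2424 TPM in Scgb1a1-dominant cells. In the wild-type chip the median and highest values were 391.7 and 4049 TPM in Sftpc-dominant cells, against 212 and 5568 TPM in Scgb1a1-dominant cells. The ranges overlapped on both chips. The difference of means was 3.92 in the knockout chip but 1.01 in the wild-type chip, just past the limit, and the wild-type value was 0.64 with a pseudocount of 10.

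Pdpn showed the opposite distribution. It was detected in 4 of 15 Sftpc-dominant against 32 of 46 Scgb1a1-dominant cells labelled knockout, and in 3 of 17 against 20 of 49 wild-type cells. Mean levels were 5.19 TPM against 475 TPM in the knockout chip and 6.05 TPM against 139 TPM in the wild-type chip. The differences were -5.15 and -2.24, and no Sftpc-dominant cell reached 100 TPM of Pdpn, while 29 and 13 Scgb1a1-dominant cells did. Hopx was detected in 3 of 15 Sftpc-dominant against 21 of 46 Scgb1a1-dominant cells labelled knockout and in 1 of 17 against 23 of 49 wild-type cells, with differences of -1.44 and -1.95. The Hopx call was lost when cells with both transcripts within 10-fold were left out, at -0.93 in the knockout chip, when cells were placed by marker lists, at -0.66 in that chip, and with a pseudocount of 10, at -0.61 and -0.85.

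The other 3 countable members gave no difference of that size on both chips. Emp2 differed by 2.30 in the knockout chip and 0.47 in the wild-type chip. Clic5 differed by -1.28 and -0.39, and Aqp5 by 0.36 and 0.58. Sftpc-dominant cells had fewer detected genes than Scgb1a1-dominant cells, with medians of 3196 against 3824 in the knockout chip and 2633 against 3154 in the wild-type chip. As a description over 127 cells, the correlation of a member with the log2 number of detected genes was at most 0.29, that of Pdpn.

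Cells that held both Sftpc and Scgb1a1 within 10-fold of each other all contained Ager. It was detected in 24 of 24 such cells labelled knockout (interval 85.8 to 100%) and 12 of 12 wild-type cells (interval 73.5 to 100%). This was not particular to Ager, since Sftpb and Cyp2f2 were also detected in all of these cells. Scgb3a2 was detected in 23 of 24 and 11 of 12, and Lamp3 in 22 of 24 and 9 of 12. Among cells with Sftpc more than 10-fold over Scgb1a1, Ager was detected in 7 of 8 cells labelled knockout and 11 of 14 wild-type cells. Among cells with Scgb1a1 more than 10-fold over Sftpc it was detected in 11 of 29 cells labelled knockout (37.9%, interval 20.7 to 57.7%) and in 25 of 40 wild-type cells (62.5%, interval 45.8 to 77.3%). Of the cells with both transcripts, Emp2 was detected in 18 of 24 labelled knockout and 7 of 12 wild type, and Pdpn in 13 of 24 labelled knockout and 4 of 12 wild type. Whether a well with both transcripts held more than 1 cell was not tested; per the labels, wells with doublets were removed by inspection. These cells also had the most detected genes, with medians of 3893.5 in the knockout chip and 3676 in the wild-type chip.

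**Figure D3:**
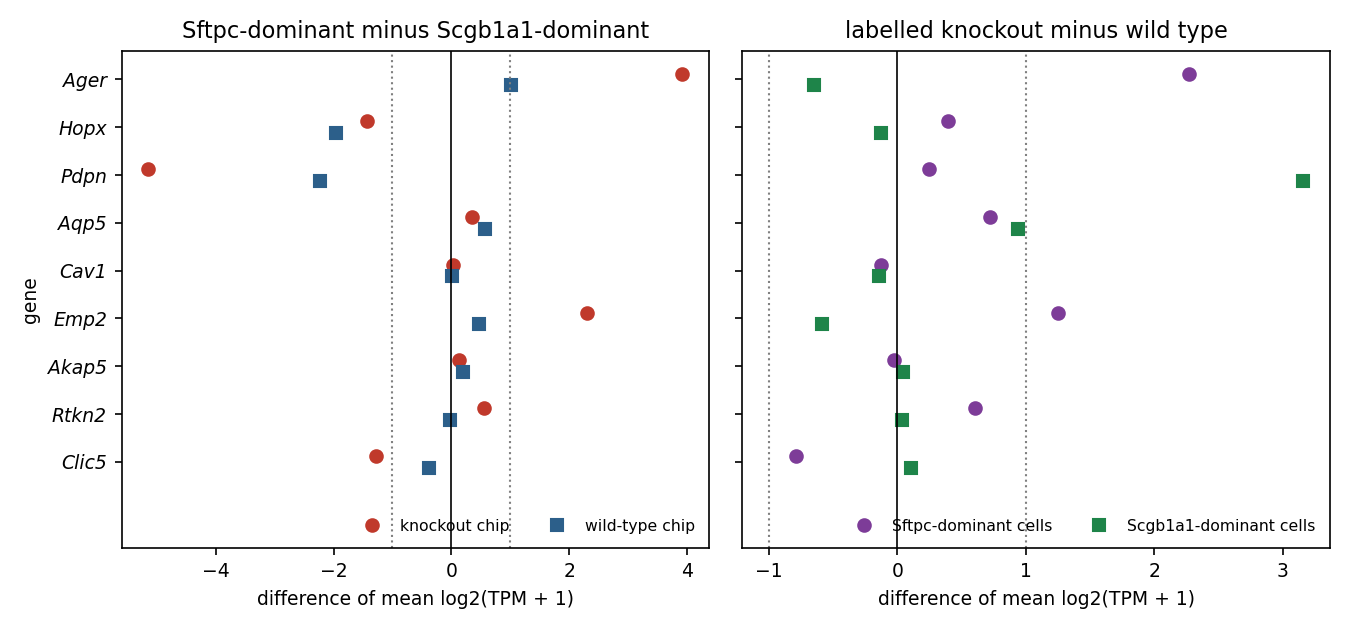
Differences of mean log2(TPM + 1) for each gene, between cell states on each chip (left) and between genotypes within each state (right); dotted lines mark differences of 1. Pdpn lies at -5.15 and -2.24 in the left panel and at 3.16 for Scgb1a1-dominant cells in the right panel, and Ager lies right of the line for Sftpc-dominant cells only.

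Between genotypes, the main difference in Scgb1a1-dominant cells was in Pdpn. Genes were counted from a difference of 1 upward, if 20% or more of the cells of the higher genotype had them, which 12.8% of 6495 genes met as higher and 0.339% as lower in cells labelled knockout; 1 of the 6 countable members, Pdpn, met it. The median over all counted genes was 0.35, so values near it follow the whole table. Pdpn ranged over 0, 329 and 1708 TPM (lowest, median, highest) in cells labelled knockout, against 0, 0 and 1051 TPM in wild-type cells. It was detected in 69.6% (interval 54.2 to 82.3%) of cells labelled knockout, against 40.8% (27 to 55.8%) of wild-type cells, and the ranges overlapped. The difference was 3.16, and 8 of 6495 genes, Pdpn included, were as far or farther in that direction. Scgb3a1, a club-cell secretoglobin, differed by 3.38. In bulk the log2 fold change of Pdpn was 0.20, and all 3 knockout libraries lay below wild-type replicates 5 and 6 and above wild-type replicate 1. In the same cells Ager differed by -0.65 and Emp2 by -0.59, both against the direction of the table, while Aqp5 differed by 0.94, Clic5 by 0.11 and Hopx by -0.13.

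In Sftpc-dominant cells, Ager and Emp2 were the members counted as higher in cells labelled knockout. By the same rule 20.9% of 6808 genes were higher and 3.38% lower there, beside 2 higher and 0 lower of 7 countable members, a share near that of the whole table. The median over all genes was 0.36. Ager was detected in 14 of 15 cells labelled knockout and 14 of 17 wild-type cells, with a difference of 2.27 that 161 of 6808 genes reached. Emp2 was detected in 13 of 15 cells labelled knockout and 12 of 17 wild-type cells, with mean levels of 155 TPM in cells labelled knockout and 25.9 TPM in wild-type cells and a difference of 1.25. The Emp2 difference fell short of 1 with at least 2000 detected genes per cell (0.60), with a pseudocount of 10 (0.81) and with cells within 10-fold left out (0.84). Rtkn2 differed by 0.61, Aqp5 by 0.72, Hopx by 0.39, Pdpn by 0.25 and Clic5 by -0.79. The Sftpc-dominant cells of the chips also differed in their Scgb1a1, with medians of 35294 TPM in cells labelled knockout and 610 TPM in wild-type cells, and the part of this in the values of Ager and Emp2 was not tested.

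Over single cells, the genes whose levels ran closest to each member were found by Pearson correlation of log2(TPM + 1), centred within chip, among 4543 genes over 127 cells. These correlations describe cells of shared chips. Pdpn ran closest to Tff2 (r = 0.90), Bpifb1 (0.88) and Reg3g (0.85), which encode a trefoil peptide, a BPI-fold secretory protein and an antimicrobial lectin. The values were 0.92, 0.91 and 0.86 within the knockout chip, and 0.86, 0.84 and 0.84 within the wild-type chip. With Tff2, Pdpn had 0.93 and 0.88 among Scgb1a1-dominant cells of these chips, against 0.042 and 0.36 among Sftpc-dominant cells. With Scgb3a1, Pdpn had 0.86 in the knockout chip and 0.81 in the wild-type chip. Ager ran closest to Sfta2 (0.59), Cldn18 (0.56) and Sftpc (0.56), a surfactant-associated protein, a tight-junction claudin and surfactant protein C. For Ager and Sftpc the value was 0.75 in the knockout chip and 0.37 in the wild-type chip. It was 0.75 and 0.42 among Scgb1a1-dominant cells alone, and 0.023 and 0.57 among Sftpc-dominant cells alone. Emp2 also ran closest to Cldn18 (0.52), while no gene passed 0.39 for Hopx, Aqp5 or Clic5. Ager and Pdpn ran against each other (r = -0.44), and did so among Scgb1a1-dominant cells alone at -0.40 in the knockout chip and -0.47 in the wild-type chip.

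The Scgb1a1-dominant cells were next divided by Tff2, a split made after these values were seen. Since Tff2 was picked for its correlation with Pdpn in the same cells, the split restates that correlation as counts and supports nothing beyond it. Tff2 was detected in 29 of 46 cells labelled knockout (63.04%, interval 47.5 to 76.8%) and in 18 of 49 wild-type cells (36.7%, interval 23.4 to 51.7%). Pdpn was detected in 29 of 29 Tff2-positive cells labelled knockout and in 17 of 18 Tff2-positive wild-type cells. Without Tff2, Pdpn was detected in 3 of 17 cells labelled knockout and 3 of 31 wild-type cells. Among Tff2-positive cells, Pdpn had a median of 736 TPM in cells labelled knockout (109 to 1708 TPM), against 292 TPM in wild-type cells (0 to 1051 TPM). The difference between genotypes was 1.87 with Tff2 and 0.41 without it, against 3.16 over both together. The median over all counted genes of Scgb1a1-dominant cells was 0.35. Dividing by a gene picked for its correlation with Pdpn tends to shrink such values, so they do not show what the 3.16 rests on. Ager went the other way in the knockout chip, detected in 14 of 29 cells with Tff2 and 14 of 17 without it, and in the wild-type chip, in 7 of 18 with it and 27 of 31 without it. In bulk, Tff2 had 250, 695 and 341 FPKM in knockout libraries, against 38.7, 523 and 938 FPKM in wild-type libraries. Wild-type replicate 1 had the lowest Tff2 and the lowest Pdpn of the 6 libraries. Pdpn is also a mesothelial marker: Msln was detected in 14 cells of each genotype, all Scgb1a1-dominant, while Upk3b was detected in 1 Sftpc-dominant cell labelled knockout and Wt1 and Lrrn4 in 0 cells. The correlation of Pdpn with Msln was 0.51 in the knockout chip and 0.69 in the wild-type chip.

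**Figure D4:**
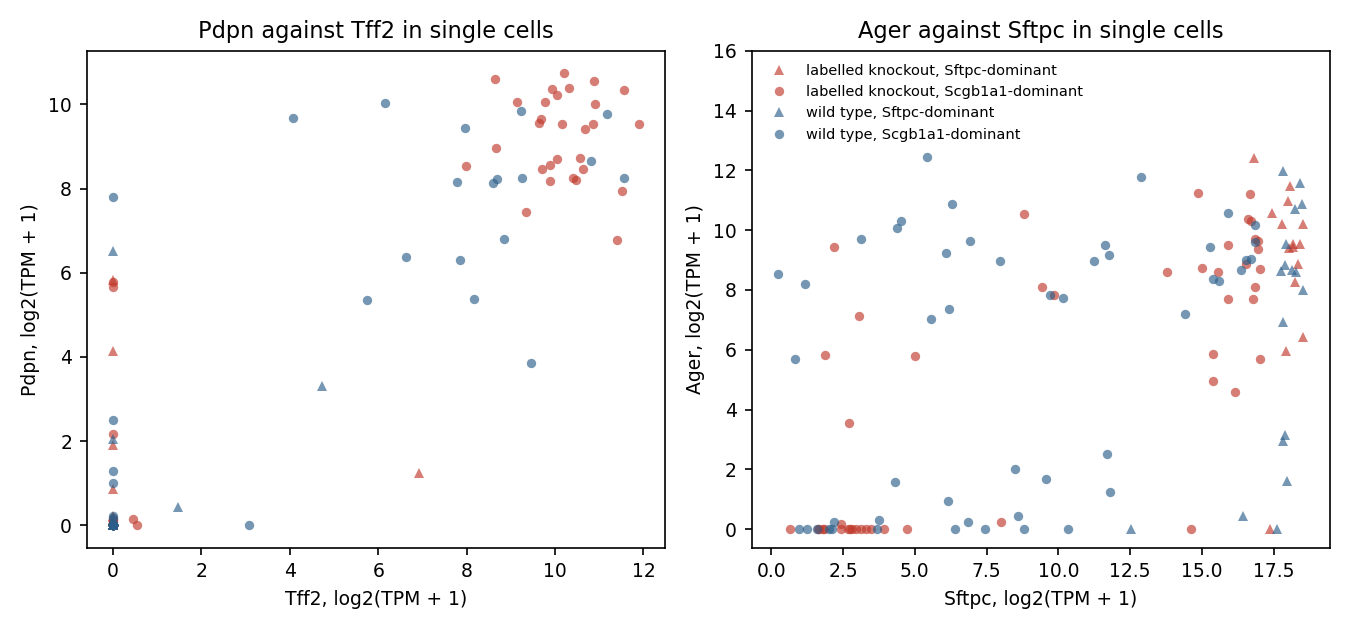
Pdpn against Tff2 (left) and Ager against Sftpc (right) in single cells, log2(TPM + 1); red marks cells labelled knockout, blue wild-type cells, triangles Sftpc-dominant and circles Scgb1a1-dominant cells. Pdpn is high where Tff2 is high and mostly near 0 elsewhere, and Ager is either near 0 or high in cells with little Sftpc.

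A wider list of 24 other genes reported in type 1 cells did not follow the 9 as a block. In bulk, 22 were tested, 0 were called, and 15 had positive and 7 negative log2 fold changes, with a median of 0.12. Without overlap, 6 of the 22 lay higher and 3 lower in knockout libraries, beside 9.04% and 10.2% of all tested genes. Sema3e, a semaphorin, had 15.3, 12.9 and 11.1 FPKM in knockout libraries, against 8.62, 8.66 and 8.48 FPKM in wild-type libraries, at a log2 fold change of 0.55 (limma adjusted p = 0.306). Gramd2 also lay higher without overlap, at 0.63 (limma adjusted p = 0.308). Vegfa, the endothelial growth factor, lay lower without overlap at -0.32 (limma adjusted p = 0.312), as did Cldn18 at -0.90 (limma adjusted p = 0.328). Among single cells, Cldn18 was higher in Sftpc-dominant cells, as Ager was, by 5.92 in the knockout chip and 3.51 in the wild-type chip. Anxa1, an annexin, was lower there, as Pdpn was, by -4.07 and -4.23. Of the 14 genes of this list that could be counted between states, 1 was higher and 3 were lower. Within Sftpc-dominant cells 8 of 15 were higher in cells labelled knockout and 0 lower, beside 20.9% and 3.38% of all genes. Within Scgb1a1-dominant cells 4 of 17 were higher and 0 lower, beside 12.8% and 0.339% of all genes.

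Transitional alveolar cells are an intermediate between type 2 and type 1 cells; 9 genes reported in them were tested in bulk and 0 were called. Cdkn1a had 19.7 ± 1.66 FPKM in knockout and 47.2 ± 14.6 FPKM in wild-type libraries (SD, n = 3 each), at a log2 fold change of -1.18 (limma adjusted p = 0.203). Cldn4 and Krt8 lay higher in knockout libraries without overlap, at 0.80 and 0.62 (limma adjusted p = 0.222 and 0.316). Of the 9, 3 lay higher and 1 lower without overlap, beside 9.04% and 10.2% of all tested genes. In Scgb1a1-dominant single cells Cldn4 went the other way, at -1.07 (labelled knockout minus wild type), and Krt8 differed by 0.81. There 2 of 8 countable genes of the list were higher and 2 lower, beside 12.8% and 0.339% of all genes. In Sftpc-dominant cells 5 of 8 were higher and 0 lower, beside 20.9% and 3.38%. Of the regulators Nkx2-1, Gata6, Yap1, Wwtr1, Tead1 and Klf5, 0 of 6 were called and all 6 had overlapping groups. Klf5 was lower in Sftpc-dominant than Scgb1a1-dominant cells, by -1.69 and -1.90, and Nkx2-1 differed by 0.85 and 1.56.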

How the data were processed

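The deposited bulk table holds FPKM; the submitters' processing notes name TopHat, Bowtie2, Cufflinks and the mm10 build. The deposited single-cell tables, 1 for each genotype, hold TPM, and the same notes name RSEM 1.2.20, Bowtie 1.1.1 and GRCm38 for them; levels set between genotypes therefore cross tables. Count tests were not run, as neither unit carries reads. Libraries were made with SMARTer kits and read as 75-nucleotide single reads, per the labels' protocols; the bulk titles name day 30 and the protocol 70 days after tamoxifen. Groups came from the genotype and title labels. Bulk column headers begin with "second" for every library except wild-type replicate 6. What this marks is not stated, and its part in the bulk values was not tested. Left out were 12 bulk genes with entries marked in place of values (Scgb1a1 and Sftpc among them), cells below 1000 genes at TPM 1 or more (3 labelled knockout, 6 wild type), 4 wells with a debris or valve remark and 2 off-chip control wells. A further 2 knockout cell samples had no matched column and were not analysed here. Their titles name the same wells as 2 cells that were analysed, and whether they are repeat entries is not stated. Spike-ins (92) stayed in the TPM totals but were not counted as genes.

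Bulk log2(FPKM + 1) was fitted in R 4.3.3 with limma 3.58.1, its eBayes step using trend and robust, and fold changes on that scale understate low genes. Exact permutation of 3 against 3 libraries cannot go below p = 0.1 and was not used. Single-cell values were summarised with pandas 2.3.3 and scipy 1.17.1. Gene positions are from GENCODE vM21. The 9 genes, the wider lists and the rules were chosen with earlier results of these data known. Named genes are all members and the 3 closest genes by correlation. Up to 2 genes per list and direction were also named, by bulk p or cell-state difference. The endothelial, mesothelial, lymphatic and immune markers were named after their values were seen. Alternatives are given in the closing section.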

Additional observations from a re-analysis of the deposited data

Results flagged for a closer look

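The genotype difference of Ager had opposite signs in the 2 cell states, 2.27 in Sftpc-dominant and -0.65 in Scgb1a1-dominant cells (labelled knockout minus wild type, mean log2(TPM + 1)). Emp2 had the same pattern, with 1.25 and -0.59. With 1 sample per genotype the difference between the states was not tested.

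The off-chip positive control of the knockout chip, a reaction outside the chip's wells that the comparisons do not use, held 194 TPM of Pdpn, 28.7 TPM of Aqp5, 16.96 TPM of Ager, 8.35 TPM of Emp2, 6.91 TPM of Clic5 and 2.96 TPM of Hopx. The negative control held 0 TPM of all 9 genes. In the 4 wells with a debris or valve remark, Pdpn was present in each, at 531, 251 and 1803 TPM in the 3 wells of the knockout chip and 225 TPM in the wild-type well.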

How the results depend on the processing

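No paired analysis was possible because the knockout and wild-type bulk libraries share no replicate number and the cell numbers only name cells. In bulk, 0 members were called in any of the 13 alternatives, while the number of genes called over the table was 1 as reported, 2 with a pseudocount of 0.1, 913 with library weights, and 0 to 407 when each library was left out (407 without wild-type replicate 1). The members' median log2 fold change moved to -0.28 with library weights and ranged from -0.11 to 0.02 with a library left out. Ager stayed between -0.88 and -0.43 and Emp2 between -0.64 and -0.27. Hopx ranged from 0.10 to 0.59 with a library left out. Pdpn reversed to -0.62 with library weights and ranged from -0.78 to 0.69 with a library left out. Aqp5 and Clic5, near 0, ranged from -0.090 to 0.022 and -0.18 to 0.16 with a library left out, and Clic5 was 0.00052 with a pseudocount of 5 and 0.020 with quantile normalization.

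Among single cells, members counted by state went from 3 to 1 (Pdpn) with a pseudocount of 10. They went to 4 with at least 2000 detected genes, adding Emp2 as higher (2.50 in the knockout chip, 1.24 in the wild-type chip). With a pseudocount of 0.1 they also went to 4, adding Clic5 as lower (-2.19 and -1.05). Members counted by genotype over both states went from 3 to 6 with a pseudocount of 0.1 and to 5 with cells within 10-fold left out; both added Ager as lower in Scgb1a1-dominant cells labelled knockout. At least 2000 detected genes also did so (-1.17), with Clic5 added as lower in Sftpc-dominant cells (-1.18). Pdpn met both rules, and Ager the rule in Sftpc-dominant cells, in all 8 other settings over whole states. The cause of these shifts was not tested. Detection of the rarer members depended on the cutoff. At any TPM above 0, Akap5 was found in 79 of 127 cells, Rtkn2 in 55 and Cav1 in 6. At a TPM of at least 10 the numbers were 8, 3 and 1. TPM and FPKM give no read depth, so undetected values of Cav1, Akap5 and Rtkn2 cannot be read as absence.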
